A study of Rattus norvegicus with 11 samples.

Results

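The guidance genes described here were the repellent ligands Slit1, Slit2 and Slit3, their receptors Robo1 and Robo2, the semaphorin Sema3a, its receptor Nrp1 and the related semaphorin receptor Nrp2. They are 8 of the 35581 distinct names that the non-control probes of the array carry. Every non-control probe whose gene name is one of the 8 was taken, which gave 12 probes among 41012. The genes were selected on measured values of the same heroin and saline contrast, so their differences are given as a description and without a test.

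Slit proteins are secreted cues that bind Roundabout (Robo) receptors and turn growing axons and migrating neurons away from their source. Sema3a is a secreted semaphorin that acts through a complex of a neuropilin, which binds the ligand, and a plexin, which carries the signal into the cell and changes the actin and microtubule skeleton. In the adult cortex, genes of both systems are still expressed in neurons, and they are known for roles in dendrites and synapses.

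RNA came from the medial prefrontal cortex of male rats aged 4 months. In the heroin group, 6 rats had self-administered heroin intravenously by licking a spout. In the yoked saline group, 5 rats received saline whenever their matched heroin rat earned an infusion. The study's methods describe arrays of 6 rats in each group, but the series holds only 5 saline arrays. All rats then had 14 days of abstinence and an extinction session without drug, directly after which the tissue was taken, so both groups share abstinence and extinction and no untouched rats are in the comparison. The block held several cortical areas and all their cell types, and fewer cells of a type cannot be told apart from less RNA per cell. No rat strain was given in the labels.

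Each rat had 1 single-colour Agilent array with probes of 60 nucleotides. Signals are background-corrected fluorescence intensities, here divided by the median of the same array and called array medians. The arrays' own median intensities lay between 42.7 and 78.3 in the heroin group and between 58.0 and 83.2 in the saline group. The number of arrays limits the precision. All saline arrays lay at position 3 of their slide and all heroin arrays at position 4, so slide position and group cannot be told apart. Replicates 2 to 6 of both groups shared a scan date by number, and heroin replicate 1 had no saline array beside it. Arrays with the same scan date are here called a slide, though the identity of the slides was not looked up. Of the marker lists for 9 cell types or neighbouring tissues, the detected ones included 5 of 5 measured neuron genes, and the summed signals of the 2 groups overlapped in every list. Of the measured striatal markers 5 of 6 were detected on all arrays, all but Drd2, and of the microglial markers 5 of 6, all but Itgam.

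Of the 25555 probes detected on all 11 arrays and tested with limma, 694 (2.72%) met both criteria of the study, a p below 0.02 before adjustment and a difference of 1.4-fold or more. Those higher in heroin made up 1.79% and those lower 0.927%. With the methods' t-test (unequal variances) in place of limma, 308 probes passed both thresholds. At an adjusted p under 0.05 the share was 0%, with 0 probes called by limma and 0 by the methods' t-test, although 4723 and 4127 probes, in that order, had an unadjusted p under 0.05. In 1.78% of the probes the 2 groups did not overlap at all. Saline replicate 5 stood apart in this respect, since 2352 probes passed both thresholds without it.

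All 12 probes of the Slit, Robo, Sema3a and neuropilin genes were detected on every array and tested, and 0 of them passed both thresholds. In 0 of the 12 did the heroin and saline rats fail to overlap. Benjamini-Hochberg adjusted limma p-values of the 12 ran from 0.263, the lowest value of any probe on the array, to 0.922. Since the choice of genes used this contrast, nothing is read from these counts against the shares over all probes.

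The scale of the arrays bears on every direction below. With the study's scaling to the 50th percentile, the median log2 difference (heroin minus saline) over all tested probes was 0.18, and 78.7% of the probes were higher in heroin. Quantile normalization brought the median to 0.01, and the 75th percentile brought it to -0.03. The median over the 12 guidance probes was 0.10, below that of all probes, and -0.07 after quantile normalization. With the study's scaling 8 of the 12 were higher in heroin and 4 lower, while quantile normalization turned this to 4 and 8. Of the 12 probes, 8 kept their direction under the 3 scalings and 4 did not.

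**Figure D1:**
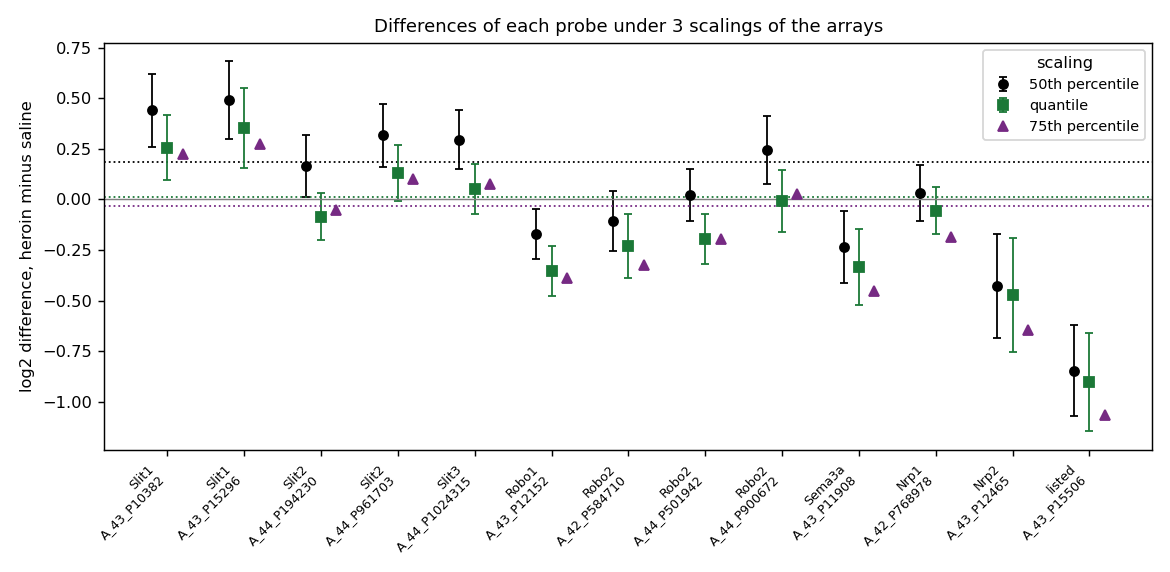
Log2 differences (heroin minus saline) of the 12 probes and of the Slit2 probe of the study's list ("listed") under scaling to the 50th percentile, quantile normalization and scaling to the 75th percentile. Bars on the first and second are limma's standard errors, and dotted lines are the medians over all tested probes, 0.18, 0.01 and -0.03. Both Slit1 probes are above 0 and the Robo1, Sema3a, Nrp2 and listed probes below 0 under each scaling.

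Measurements labelled as Slit2 are kept apart here, because the array files place their probes on different chromosomes. The array has 2 probes named Slit2, both placed by the array files on the minus strand of chromosome 14 in build rn3, with starts 1514 bases apart. The study's list of changed genes gives another probe for Slit2, A_43_P15506, whose name field holds a transcript accession in place of a symbol, so that it is not among the 12. The accession belongs to Slit2 in RefSeq's current gene table, but the array files place the 60 bases of this probe on chromosome 6. The sequences are printed as in the array files, 5′ to 3′, with each triplet TAA, TAG or TGA in any of the 3 forward frames in capitals. The first is whole and the others are the first 30 bases.

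Slit2 probe A_44_P194230: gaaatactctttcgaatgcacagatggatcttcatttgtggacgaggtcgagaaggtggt

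Slit2 probe A_44_P961703: TAGatgtacgtgtaTAAttcggtctgcttt

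Listed probe A_43_P15506: agTAAgTAAccagTAAaaggacaagaggaa

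Slit2 probe A_44_P194230 lies at chr14:67550743-67550802 and has 3 of 3 frames without a stop triplet, as protein-coding sequence would need in at least 1 frame. Slit2 probe A_44_P961703 lies at chr14:67549229-67549288 and has 1 such frame. The listed probe lies at chr6:113771402-113771461, also on the minus strand, and over its 60 bases has 4 stop triplets and 0 open frames. Of the 12 guidance probes, 11 had an open frame. The exception was the Robo2 probe A_44_P501942, with 4 stop triplets and 0 open frames like the listed probe. The named gene probe nearest to the listed one was that of the synaptic adhesion gene Nrxn3, 137357 bases away, and it differed by 0.30 (SE 0.12) on the log2 scale, or 0.05 after quantile normalization. The nearest named neighbour of both Slit2 probes was RGD1311045. No other probe on the array shares a run of 16 bases with the listed probe on either strand (0 found). Which transcript it reads, and which exon or untranslated region each probe lies in, was not analysed here.

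The brighter Slit2 probe, A_44_P194230, had 27.5, 25.4, 35.0, 38.3 and 30.5 array medians in the saline rats with replicate numbers 2 to 6, against a lowest value of 25.1, a median of 35.5 and a highest of 40.6 in the heroin rats. The groups overlapped, and heroin replicate 5 was below all saline rats. The means were 35.2 ± 5.55 (SD, n = 6) in heroin and 31.3 ± 5.32 (SD, n = 5) in saline. This is a log2 difference of 0.17 (SE 0.15), and it turned to -0.08 with quantile normalization and to -0.05 with the 75th percentile. At 129 times the lowest signal that the software scored as well above background, this was the probe farthest from background among the 12.

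The other Slit2 probe, A_44_P961703, had 3.00, 2.25, 3.28, 3.95 and 3.02 array medians in the saline rats. Heroin rats ran from 3.27 through a median of 3.67 to 4.78. Only saline replicate 5 and saline replicate 4 reached into the heroin range. The difference was 0.32 (SE 0.15), and it stayed above 0 with quantile normalization at 0.13 and with the 75th percentile at 0.10. On the shared slides and with the study's scaling, both Slit2 probes were higher in the heroin rat in 4 of 5 pairs. In both the exception was replicate 5.

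The listed probe behaved differently in the same rats. It had 2.25, 1.68, 1.36, 1.20 and 1.84 array medians in the saline rats. In the heroin rats it had 0.870, 1.39, 0.747, 0.838, 1.27 and 0.575 for replicates 1 to 6. The groups overlapped, because heroin replicates 2 and 5 lay within the saline range, while the other 4 were below all saline rats. The means were 0.947 ± 0.314 (SD, n = 6) and 1.67 ± 0.411 (SD, n = 5), a log2 difference of -0.85 (SE 0.22), or 1.80-fold lower in heroin. It was below 0 under each of the 3 scalings, at -0.90 with quantile normalization and -1.06 with the 75th percentile, and -0.46 after normexp background correction. Leaving out each rat in turn gave -0.97 to -0.71. The study chose this probe on its own arrays, which include these samples, so its fall is no independent evidence of a direction. The study also measured Slit2 by quantitative PCR (RT-qPCR), which did not bear out a difference for this gene.

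The listed probe was dim, at a mean of 5.05 times the lowest well-above-background signal and 1.85 times on the dimmest array. Within the shared slides it differed by -0.70, -1.17, -0.70, 0.07 and -1.67 for replicates 2 to 6. With the study's scaling, the Slit2-named and listed probes thus went opposite ways on the slides of replicates 2, 3, 4 and 6. They did so again on that of replicate 5, where each turned. After quantile normalization, Slit2 probe A_44_P194230 was lower in heroin on the slide of replicate 6 (4.93 against 5.23 log2 units), as was the listed probe (-0.73 against 1.02).

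**Figure D2:**
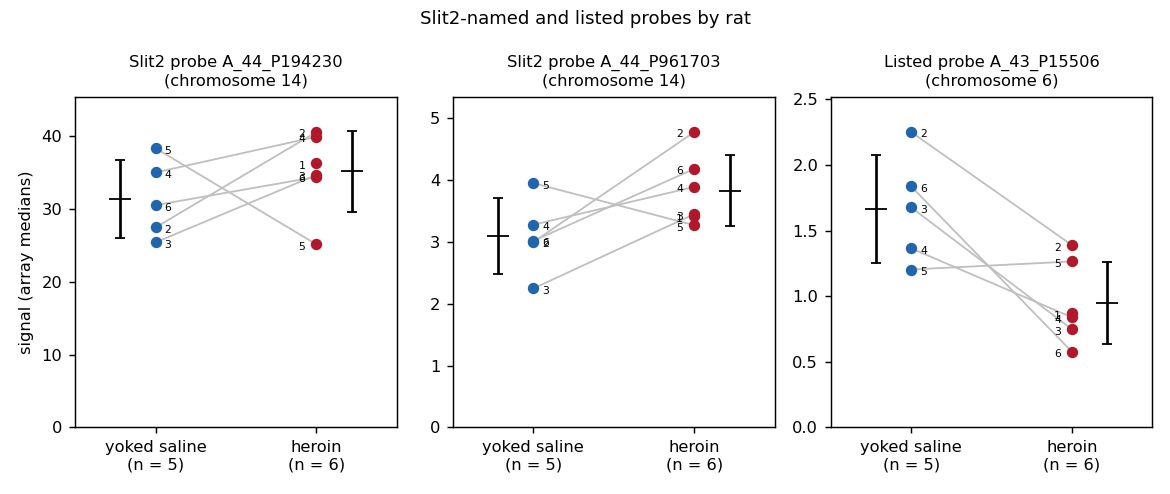
Signal in array medians (vertical axes, linear from 0) of the 2 Slit2-named probes and the listed probe in 5 yoked saline and 6 heroin rats. Points are rats with their replicate numbers, grey lines join rats with the same scan date (called a slide here), and bars are mean ± SD. Lines rise for 4 of 5 slides in the first and second panels and fall for 4 of 5 in the third, where 4 of 6 heroin rats lie below all saline rats.

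As a description of likeness, each probe's log2 signal was centred on its mean over the 11 arrays and set against that of the listed probe by the root mean square difference. Over 13452 probes that carry a gene symbol the median was 0.718. The probes most like the listed one were those of RGD1563444 (0.139), Cdk5rap2 (0.169), a centrosome protein gene, and Gip (0.174), which encodes a gut hormone. They were lower in heroin by 0.68, 0.56 and 0.72 on the log2 scale, in that order, and were dim as well, at 2.65 to 2.99 times the lowest well-above-background signal. The 2 Slit2-named probes ranked 6964 and 8765 in likeness, and the nearest of the 12 was Nrp2, at rank 390. The points of these comparisons share the same arrays and the same scaling. The likeness also takes in the difference between the groups. Lower values in heroin among the nearest probes thus follow from the ranking, and the ranks of the Slit2-named probes partly restate their own differences.

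Slit1 had the largest differences upward among the 12, on both of its probes. Probe A_43_P15296, at chr1:246930364-246930423, had 2.42, 1.42, 1.67, 2.78 and 1.83 array medians in the saline rats and 2.03, 2.65 and 3.65 as the lowest, median and highest values in the heroin rats. Means were 2.81 ± 0.595 (SD, n = 6) and 2.02 ± 0.559 (SD, n = 5). The groups overlapped, with heroin replicates 3 and 5 above all saline rats.

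The difference was 0.49 (SE 0.19), and with the study's scaling the heroin rat was higher on 5 of 5 slides. After quantile normalization it was lower on those of replicates 2 (1.36 against 1.52 log2 units) and 6 (0.97 against 1.02). Probe A_43_P10382, at chr1:246929032-246929092, is annotated as a splice product of Slit1. It had 3.02, 2.27, 3.29, 4.14 and 2.70 array medians in the saline rats, and 2.77, 4.47 and 4.92 as the lowest, median and highest in heroin. Here 4 of 6 heroin rats were above all saline rats, and heroin replicates 1 and 2 lay within the saline range. On the slides the heroin rat was higher in 4 of 5 pairs, replicate 2 being the exception. Means were 4.18 ± 0.816 (SD, n = 6) and 3.08 ± 0.703 (SD, n = 5), a difference of 0.44 (SE 0.18). Both Slit1 probes, which lie on the minus strand, stayed above 0 with quantile normalization, at 0.35 and 0.26, and with the 75th percentile, at 0.27 and 0.22.

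Saline replicate 5 was the highest saline rat on both Slit1 probes. Without it the differences were 0.62 and 0.55.

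Slit3 was measured by 1 probe, A_44_P1024315, at chr10:20577428-20577487 on the plus strand. Its signal was 23.2, 21.1, 20.8, 25.6 and 20.8 array medians in the saline rats, and 28.6, 29.7, 28.3, 26.8, 19.1 and 33.6 in heroin replicates 1 to 6. All heroin rats but replicate 5 were above every saline rat, and replicate 5 was below every one. Means were 27.7 ± 4.80 (SD, n = 6) and 22.3 ± 2.10 (SD, n = 5), and the log2 difference was 0.29 (SE 0.15). It shrank to 0.05 with quantile normalization and 0.08 with the 75th percentile, near the medians of all probes under those scalings, and was 0.40 without heroin replicate 5.

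**Figure D3:**
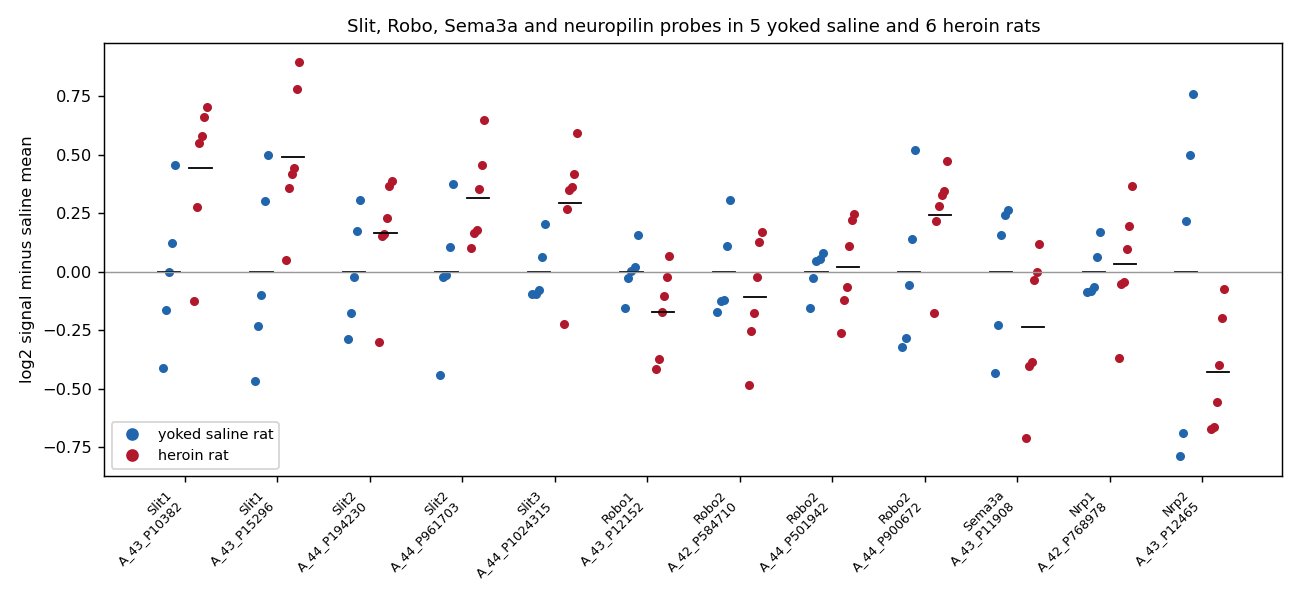
Log2 signal of the 12 probes in each rat after subtraction of the probe's saline mean (vertical axis, log2 units). Points are rats, with yoked saline left and heroin right, and short lines are group means. The 2 groups overlap in all 12 probes, with means from -0.43 (Nrp2) to 0.49 (Slit1) in the heroin rats.

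Among the receptors, the Robo1 probe A_43_P12152 (chr11:11719214-11719273, plus strand) was lower in heroin on all 5 shared slides. Saline rats had 3.00, 2.94, 3.35, 2.69 and 3.04 array medians, and heroin rats had 2.25, 2.73 and 3.14 as the lowest, median and highest. The heroin replicates 3, 5 and 6 were below all saline rats, and the rest overlapped with them. Means were 2.68 ± 0.352 (SD, n = 6) and 3.01 ± 0.233 (SD, n = 5). The difference was small, at -0.17 (SE 0.13), and larger with quantile normalization (-0.35) and with the 75th percentile (-0.39), under which the median of all probes was near 0.

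Robo2 was read by 3 probes on the minus strand of chromosome 11, and they did not move alike. Probe A_42_P584710, whose 60 bases are spread over chr11:12708249-12717814 with a gap between them, had means of 1.73 ± 0.288 (SD, n = 6) in heroin and 1.86 ± 0.273 (SD, n = 5) in saline, a difference of -0.11 (SE 0.15). Probe A_44_P501942 (chr11:12666336-12667346) had 4.89 ± 0.681 (SD, n = 6) and 4.78 ± 0.307 (SD, n = 5), a difference of 0.02 (SE 0.13). Probe A_44_P900672 (chr11:12665243-12665302) had 26.1 ± 3.71 (SD, n = 6) and 22.3 ± 5.67 (SD, n = 5), a difference of 0.24 (SE 0.17).

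Heroin and saline rats overlapped on each Robo2 probe. Only the first kept its direction: quantile normalization gave -0.23, -0.19 and -0.01 for the probes in that order, and the 75th percentile -0.33, -0.20 and 0.03. The mean over the 3 probes was 0.05.

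Sema3a and the neuropilins were the dimmest of the group, at 3.90 to 6.55 times the lowest well-above-background signal. The Sema3a probe A_43_P11908 (chr4:17575223-17575282, minus strand) had 1.83, 1.81, 1.30, 1.13 and 1.70 array medians in the saline rats and 0.933, 1.33 and 1.66 as the lowest, median and highest in heroin. Means were 1.32 ± 0.277 (SD, n = 6) and 1.55 ± 0.317 (SD, n = 5). All heroin rats but replicate 6 lay within the saline range. The difference was -0.24 (SE 0.18), -0.33 with quantile normalization and -0.45 with the 75th percentile, and the heroin rat was lower on 4 of the 5 slides, replicate 5 being the exception.

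The Nrp2 probe A_43_P12465 (chr9:61604250-61606887, plus strand) had the lowest difference of the 12, at -0.43 (SE 0.26). The saline rats fell apart here, with 1.84, 1.26 and 1.54 array medians in replicates 2, 3 and 6 but 0.630 and 0.675 in replicates 4 and 5. Heroin rats had 0.682, 0.782 and 1.03 as the lowest, median and highest. All 6 heroin values thus lay inside the saline range, with means of 0.819 ± 0.145 (SD, n = 6) and 1.19 ± 0.531 (SD, n = 5). Within slides 3 pairs were lower in heroin and 2 were higher. The difference was -0.47 with quantile normalization and -0.64 with the 75th percentile.

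The Nrp1 probe A_42_P768978 (chr19:58487361-58487852, plus strand) had 1.70 ± 0.288 array medians (SD, n = 6) in heroin and 1.64 ± 0.133 (SD, n = 5) in saline. Its difference of 0.03 (SE 0.14) was among the smallest of the 12, and it turned to -0.06 with quantile normalization and -0.19 with the 75th percentile. The heroin rats ran from 1.27 to 2.11 and held the whole saline range, 1.55 to 1.84, between them.

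Without saline replicate 5, the library that stood apart above, each of the 12 differences lay farther from 0 in its own direction. They then were 0.24 and 0.41 for the Slit2 probes A_44_P194230 and A_44_P961703, 0.35 for Slit3, -0.21 for Robo1, -0.14, 0.04 and 0.37 for the Robo2 probes in the order above, -0.34 for Sema3a, 0.08 for Nrp1 and -0.60 for Nrp2. The listed probe was at -0.95.

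The partners of these genes were followed in a list of 96 further axon guidance genes, of which 86 are on the array and 73 were tested, with 100 probes. Of these probes 4 rose, 1 fell and 95 did not pass both thresholds, so 5% were called beside the 2.72% of all probes. The median difference over the list was 0.18, as over all probes, and 0.02 after quantile normalization. Under that normalization 1 of the 100 probes was called, beside 457 of the 25555 over the array, so the list had the lower share there. Each adjusted limma p-value of the 5 called probes was 0.263.

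Closest to the Slit and Robo genes, the Robo partners that were tested (Robo4, the Abl kinases, the adaptors Nck1 and Nck2, Pak1, Enah, Gpc1 and Usp33) had 0 of 13 probes called, with a median difference of 0.27 (0.08 after quantile normalization). Among the class 3 semaphorins other than Sema3a, 1 of 7 probes fell and the median was -0.07. The probe that fell was Sema3e, a semaphorin that can bind its plexin without a neuropilin, with 1.27 ± 0.187 array medians (SD, n = 6) in heroin and 1.80 ± 0.375 (SD, n = 5) in saline. Sema3e differed by -0.49 (SE 0.16), with an unadjusted limma p of 0.00767, and by -0.59 after quantile normalization. In 4 of 6 heroin rats it was lower than in all saline rats. The call was lost with normexp (-0.31), with the methods' t-test and when saline replicate 2, 3 or 6 or heroin replicate 3, 4 or 6 was left out (-0.46 to -0.41). Sema3c did not pass, at -0.38 (SE 0.18), and its other probe was at -0.07.

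Among the plexins, the signalling receptors of the semaphorins, 1 of 10 probes rose and the median was 0.29. It was that of Plxnb1, a receptor for class 4 semaphorins, with 3.16 ± 0.682 array medians (SD, n = 6) in heroin and 2.11 ± 0.162 (SD, n = 5) in saline. All 6 heroin rats were above all saline rats. The difference was 0.56 (SE 0.15), with an unadjusted limma p of 0.00177, or 0.40 after quantile normalization, which is under 1.4-fold. A second Plxnb1 probe, A_43_P21275, was not detected on all arrays and differed the other way, by -0.72 with an unadjusted limma p of 0.00270 where detection on all arrays of 1 group was enough.

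In the other groups, 1 of 28 probes of semaphorin signalling and coreceptor genes, 1 of 9 netrin and netrin receptor probes and 1 of 20 ephrin and Eph receptor probes rose, and 0 of 13 probes of semaphorins outside class 3 were called. The risen probes were Rnd1, whose product binds plexins (0.57, SE 0.21), the netrin receptor gene Unc5d (0.71, SE 0.26) and the ephrin ligand gene Efnb1 (0.72, SE 0.27). Unadjusted limma p-values were 0.0174, 0.0162 and 0.0186, and after quantile normalization the differences were 0.32, 0.48 and 0.66 and none of the 3 was called. A second probe of Rnd1 was at 0.50 and one of Unc5d at -0.24. The lowest difference outside the semaphorins was that of Rgma, a repulsive cue that binds neogenin, at -0.42 (SE 0.22), which did not pass.

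**Figure D4:**
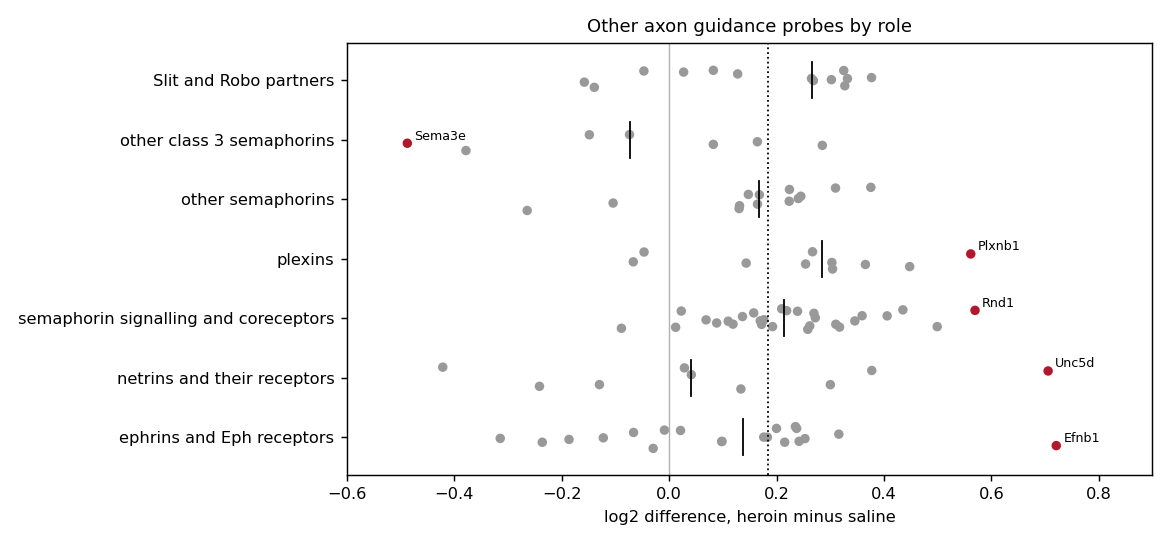
Log2 differences (horizontal axis, heroin minus saline) of the 100 tested probes of other axon guidance genes by role, with the probes past both thresholds named. Short vertical lines are the medians of each role and the dotted line is the median of all tested probes, 0.18. Sema3e is the lowest probe, at -0.49, and Efnb1 and Unc5d the highest, at 0.72 and 0.71, while the Slit and Robo partners hold no named probe.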

How the data were processed

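Cy3-labelled cRNA of each rat was hybridised to 1 array. The intensity of every spot, as deposited by the authors, had been background-corrected in Feature Extraction 9.5.1.1, which also wrote the flags. The authors also deposited relative values, a ratio for each of 23670 probes that GeneSpring had divided by chip and gene medians. Probe positions (build rn3), names and sequences are those in the deposited files. Groups came from the sample titles. No column was left without a sample.

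Control spots and spots with a non-uniformity or outlier flag were dropped. Following the study's methods, a floor of 5 was applied to the intensities, the 50th percentile of the array was divided out, and log2 was taken. A probe was detected where at least 0.5 of its spots were scored well above background. Probes detected on all 11 arrays and usable on at least 2 arrays of each group were compared by a two-sided test with limma 3.58.1 (R 4.3.3, functions lmFit and eBayes). The p-values of all tested probes were adjusted together by Benjamini-Hochberg. The fit was tested on simulated data. The lowest well-above-background signal lay between 13.3 and 20.8 intensity units per array. P-values set each difference against the spread between rats, in which rat and array variation are not separated, since each rat had 1 array.

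The genes and lists were chosen with earlier results of these data known. Named were all 12 probes of the 8 genes, the called probes and the 3 highest and 3 lowest of the other guidance probes, and the 3 probes most like the listed one. Alternatives were other scalings (75th percentile, quantile), normexp background correction (offset 50), scaling before the floor, the authors' relative values, marked spots kept, no detection filter or detection in 1 group, eBayes with trend and robust options, the methods' t-test (unequal variances, unadjusted p under 0.02 and 1.4-fold), the replicate number as a block, the mean over a gene's probes and leaving out each rat. The alternatives for the listed probe were added after seeing the data.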

Additional observations from a re-analysis of the deposited data

Results flagged for a closer look

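On the Slit2 probe A_44_P194230, heroin replicate 5 had 25.1 array medians, far below the other 5 heroin rats, whose median was 36.3. On the log2 scale, the gap to its nearest neighbour took up 0.656 of the range of the heroin group. Of 40 groups examined in this way 1 was flagged, and chance flags about 5% of groups. A single flag among 40 is thus not more than chance gives, and nothing is read from it. Without this rat the probe's log2 difference was 0.26, against 0.17 with it.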

How the results depend on the processing

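The count of probes past both thresholds over the whole array (694) fell to 457 with quantile normalization, 126 with normexp and 308 with the methods' t-test, and rose to 1560 without a detection filter and 1067 with detection in 1 group. Leaving out each rat gave 343 (without saline replicate 2) to 2352 (without saline replicate 5), with 393 without saline replicate 3. Among the 12 guidance probes the count of 0 became 1, the Slit1 probe A_43_P15296, with trend and robust eBayes and with the replicate number as a block. Since the genes were chosen on this contrast, these counts are a description. Leaving out each rat gave 0 to 2, always Slit1 probes: 1 without saline replicate 2, heroin replicate 2 or heroin replicate 6, and 2 without saline replicate 5. Over all tested probes the same settings gave 343, 977, 788 and 2352, in that order. Of the other guidance probes tested, 5 were called, against 1 with the 75th percentile, quantile normalization, normexp or the methods' t-test, 3 without a detection filter (1 of them the Plxnb1 probe A_43_P21275, which was outside the 100) and 1 (without saline replicate 3 or heroin replicate 4) to 8 (without saline replicate 5) when a rat was left out. Leaving out heroin replicates 1, 3 or 6 or saline replicates 2 or 6 gave 2, and leaving out heroin replicates 2 or 5 gave 3. The 8 probes called without saline replicate 5 stand beside the 2352 of all tested probes in that setting.

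Replicate numbers and shared scan dates coincide, so 1 fit with the replicate block served for both, over the 5 pairs. Deviations of same-numbered rats from their group means correlated at 0.384, -0.132, 0.348, 0.0181 and -0.237. The highest correlations of the same heroin rats with saline rats of other numbers were 0.41, 0.19, 0.30, 0.16 and 0.20. Only replicate 4 exceeded its own. These values cannot decide whether the numbers mark yoked pairs, which was not tested. The main fit does not pair the rats. The block gave 805 probes over the array and moved Slit1 A_43_P15296 to 0.50, Slit2 A_44_P194230 to 0.15, Slit2 A_44_P961703 to 0.35 and the listed probe to -0.83. Averaging the probes of a gene gave 0.47 for Slit1, 0.24 for Slit2 and 0.05 for Robo2, against 0.44, 0.17 and 0.24 for the brightest probes. No called difference reversed. The cause of these changes was not tested. The calls were lost in 4 of 22 settings for Plxnb1, 8 of 22 for Sema3e, 12 of 22 for Unc5d, 13 of 22 for Efnb1 and 14 of 21 for Rnd1. Signal near background limits the dim probes, among them Rgma at 3.74 times the lowest well-above-background signal, Nrp2 at 3.90 and the listed probe at 5.05.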
